A study of Mus musculus with 12 samples.

Results

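The genes described here act in the lumicrine signalling that keeps the initial segment of the epididymis, the first stretch of its caput (head), differentiated. They are Ros1, Ptpn6, Dusp6, Spry2, Spry4, Etv4, Etv5 and Ggt1, chosen by gene name for their place in this pathway. All 8 were present among the 22021 genes (28344 transcript rows) of a caput transcriptome table, where they held 9 rows. Ptpn6 had 2 transcript rows and each of the other genes 1.

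Lumicrine signalling is signalling by factors that leave the testis in the luminal fluid and act on the epididymal epithelium downstream. In the mouse the germ cell protein NELL2 reaches the initial segment in this way and activates ROS1, a receptor tyrosine kinase of principal cells, and mice without Ros1 do not form a differentiated initial segment and are infertile. Signalling through the kinase ERK then maintains the ETS transcription factors ETV4 and ETV5. DUSP6 (a phosphatase of ERK) and the sprouty proteins SPRY2 and SPRY4 are feedback inhibitors of the same pathway, and PTPN6 (also called SHP-1) is a tyrosine phosphatase that acts on ROS1. GGT1 cleaves extracellular glutathione and is a long-known product of the initial segment.

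The table compared caput of 13-month-old wild-type (WT) C57BL/6 mice with caput of Gpx5-/- mice of the same age and strain, labelled KO. Gpx5 encodes a glutathione peroxidase that the epididymis secretes. Tissue came from 7 WT and 7 KO mice and was pooled, so that each genotype was 1 library, and spermatozoa were first let out of the punctured caput by a short incubation. Small RNAs of 18 to 40 nt were sequenced in 10 further libraries, a WT and a KO library for each of 4 tissues (testis and the caput, corpus and cauda of the epididymis) at 13 months and for caput at 2 months. How the Gpx5 allele was made is not given in the sources used here. With 1 library per genotype no p-value can be given, no difference has a replicate check, and all intervals given below are 95% intervals for counting error only.

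The caput libraries rested on 14348655 reads in WT and 13929327 reads in KO. Gpx5 itself, the check of the labels, was at 8474 RPKM (reads scaled to transcript length and library size) in WT and at 918 RPKM in KO. It was thus lower in the library labelled KO, but abundant Gpx5 transcript remained there, above the 649 RPKM of the housekeeping gene Actb. The WT caput library also held testis transcripts: the summed level of 10 spermatid markers was 11008 RPKM in WT and 150.1 RPKM in KO, and that of 6 Leydig cell markers 343 and 11.7 RPKM. All 10 caput principal cell markers, among them Lcn5, Cst8 and Adam7, were detected in both libraries, with a summed level of 12656 RPKM in WT and 29500.3 RPKM in KO. In tissue libraries such as these, fewer cells of a type and less RNA per cell cannot be told apart.

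Promoter windows of members are shown first, because AGGAAG is a sequence to which ETV4, whose older name is PEA3, is known to bind. A link between the motif and the differences given below was not tested. The windows run from 250 bases before to 50 bases after an annotated start and come from RefSeq on build GRCm38.p6. They are reported here for 6 of the 8 genes (10 windows in all), with Spry4 left aside. AGGAAG or its reverse complement CTTCCT, on either strand and with overlaps counted, was found in 5 of the 10 windows and in 35.4% of all 32851 windows of the table. A match describes these letters and is not a binding site. The 4 windows below are those of the receptor, of the ERK phosphatase, of 1 of the 2 starts of Etv5 and of 1 of the 4 starts of Ggt1, the one with the most matches, with the motif in capitals.
Ros1, chr10:52195195-52195494, minus strand: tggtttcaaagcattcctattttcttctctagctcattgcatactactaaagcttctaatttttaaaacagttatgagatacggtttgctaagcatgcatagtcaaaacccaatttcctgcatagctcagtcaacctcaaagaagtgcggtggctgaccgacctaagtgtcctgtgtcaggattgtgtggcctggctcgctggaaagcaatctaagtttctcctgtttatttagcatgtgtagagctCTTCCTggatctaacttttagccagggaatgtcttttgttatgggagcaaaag
Dusp6, chr10:99262981-99263280, plus strand: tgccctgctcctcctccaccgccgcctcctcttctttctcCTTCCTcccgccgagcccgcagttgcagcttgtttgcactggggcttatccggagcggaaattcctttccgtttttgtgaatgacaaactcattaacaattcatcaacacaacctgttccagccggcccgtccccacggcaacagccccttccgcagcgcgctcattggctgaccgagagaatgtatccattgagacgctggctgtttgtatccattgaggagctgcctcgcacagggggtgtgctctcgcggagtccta
Etv5, chr16:22438319-22438618, minus strand: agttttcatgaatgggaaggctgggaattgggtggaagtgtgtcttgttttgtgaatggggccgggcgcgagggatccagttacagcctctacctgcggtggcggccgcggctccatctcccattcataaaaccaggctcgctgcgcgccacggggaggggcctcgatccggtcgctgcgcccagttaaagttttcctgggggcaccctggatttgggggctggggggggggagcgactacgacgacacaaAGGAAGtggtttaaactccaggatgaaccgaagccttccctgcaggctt
Ggt1, chr10:75573245-75573544, plus strand: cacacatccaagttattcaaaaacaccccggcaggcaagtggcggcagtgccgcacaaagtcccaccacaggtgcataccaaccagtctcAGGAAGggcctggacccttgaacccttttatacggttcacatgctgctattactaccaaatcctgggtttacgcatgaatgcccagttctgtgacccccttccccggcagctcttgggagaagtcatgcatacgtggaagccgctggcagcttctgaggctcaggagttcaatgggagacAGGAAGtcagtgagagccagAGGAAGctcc

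In these windows the motif had its first base at position -3 from the annotated start in Ros1 and at -210 in Dusp6. In Etv5 it lay at position 2, and the Ggt1 window held 3 matches, 1 before the start and the others after it. The single Ptpn6 window held 1 match, at -189. The Spry2 window, the other Etv5 window and the other 3 Ggt1 windows held none. The windows of Ros1 and Spry2 were far apart in base composition, with 41.7% and 62.7% G and C.

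The members were compared between the 2 genotypes on the scale log2(RPKM + 1), which compresses differences at low levels. All 8 members reached 1 RPKM in either library, and all 8 were higher in the KO library as deposited, with differences from 0.39 for Spry4 to 1.01 for Ros1 and a median of 0.74. Among the 15000 genes that reached this level, 52.4% had a difference above 0 and the median was 0.05. Ros1 alone among the members was at least 2-fold higher and none was at least 2-fold lower, against 2.77% and 22.1% of all genes. This direction depended on the reference: with the median of 8 epithelium markers set to 0, 7 of the 8 members lay below 0 and Ros1 was at 0.06, with the median of the 10 caput principal cell markers set to 0 all 8 lay below it, and with that of the 13 housekeeping genes Spry4 did, at -0.07. The counts of all genes at least 2-fold higher and lower were 415 and 3321 without such a reference. They became 11 and 6866 with the epithelium reference and 8 and 8078 with the principal cell reference.

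**Figure D1:**
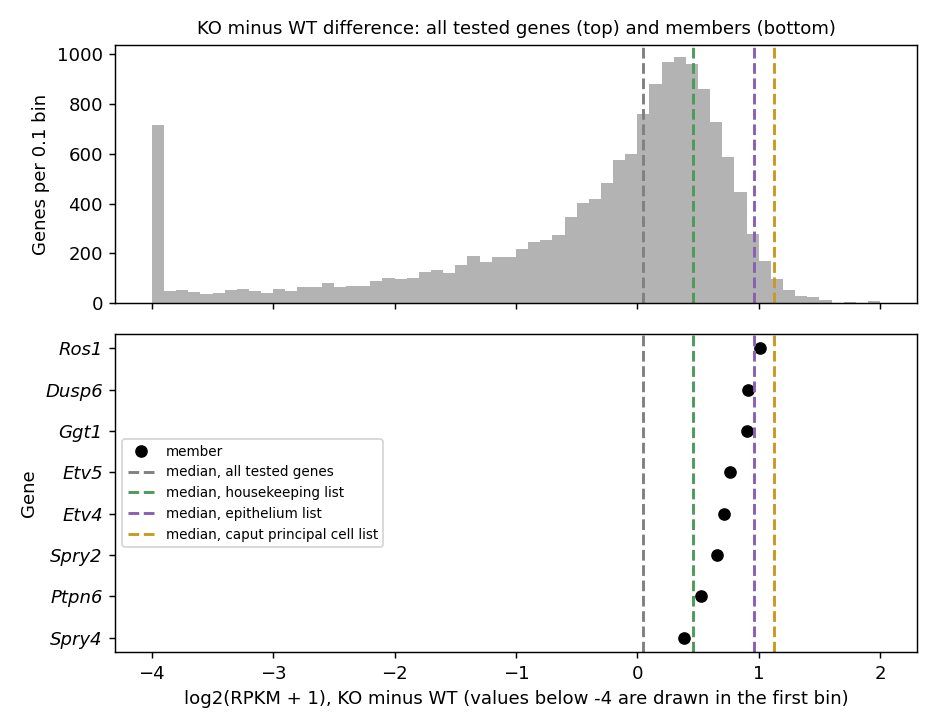
Differences on the log2(RPKM + 1) scale, KO minus WT: a histogram of the 15000 genes that reached 1 RPKM (top) and the 8 members, 1 point each (bottom), with dashed lines at the medians of all genes (0.05), the housekeeping list (0.46), the epithelium list (0.96) and the caput principal cell list (1.12). The members lie to the right of the median of all genes, and 7 of them to the left of the epithelium line.

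The receptor came first in level in both libraries. Ros1 (NM_011282) was at 46.6 RPKM (45.3 to 47.9) in WT and 95.1 RPKM (93.2 to 96.97) in KO, from 4948 and 9801 recovered reads. The KO over WT ratio was 2.04 (1.97 to 2.11), and the difference of 1.01 on the log2(RPKM + 1) scale exceeded that of 97.4% of the genes. In the authors' deposited table its GFOLD value, a log2 fold change shrunk towards 0 where counts are low, was 1.04. The 2 intervals of the level do not overlap, with KO the higher library. Relative to the epithelium markers the difference was 0.06, and relative to the caput principal cell markers it was -0.11.

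The phosphatase of the receptor was much lower in level. Ptpn6 was at 5.90 RPKM (5.08 to 6.81) in WT and 8.90 RPKM (7.88 to 10.02) in KO by its transcript NM_001077705, a ratio of 1.51 (1.25 to 1.83). Its other transcript, NM_013545, was at 5.96 and 8.75 RPKM, a ratio of 1.47 (1.21 to 1.78). The 2 transcripts gave near-equal values, and how the authors' counting divided reads that both could hold is not given in the sources used here. In the authors' deposited table their log2 fold changes were 0.66 and 0.62. The level of Ros1 was 7.90 times that of Ptpn6 in WT and 10.7 times in KO, and the intervals of their KO over WT ratios do not overlap.

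Ptpn6 is also abundant in leukocytes, so leukocyte markers stand beside it. Of 14 such markers 10 reached 1 RPKM, 0 were at least 2-fold higher or lower, and their median difference was 0.16. Their summed level was 90.5 RPKM in WT and 134 RPKM in KO, of which Lcp1, an actin-bundling protein, held 43 and 79.8 RPKM. None of the 14 was at 0 in either library. The pan-leukocyte gene Ptprc was at 4.26 RPKM in WT and 3.89 RPKM in KO, and the macrophage gene Cd68 at 4.98 and 10.8 RPKM. The part of leukocytes in the Ptpn6 values was not tested.

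The feedback inhibitors spanned a wide range of levels. Dusp6 (NM_026268) was at 18.0 RPKM (16.7 to 19.4) in WT and 34.8 RPKM (32.98 to 36.7) in KO, from 723 and 1356 reads, a ratio of 1.93 (1.76 to 2.12). Its difference of 0.91 was just under the 2-fold limit, while its log2 fold change in the authors' deposited table, 1.02, was just over it. Its ratio of 1.93, which has no pseudocount, was also under 2-fold. The authors' value scales the 2 libraries by other constants than the RPKM values do. Dusp6 was therefore a 2-fold gene by the authors' value alone.

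Both sprouty genes were expressed at low levels. Spry2 (NM_011897) was at 3.54 RPKM (2.90 to 4.28) in WT and 6.16 RPKM (5.29 to 7.13) in KO, from 106 and 179 reads, a ratio of 1.74 (1.36 to 2.23). Spry4 (NM_011898) was at 0.592 RPKM (0.421 to 0.810) in WT and 1.08 RPKM (0.840 to 1.37) in KO, from 39 and 69 reads, a ratio of 1.82 (1.21 to 2.77). Spry4 passed the 1 RPKM limit only through the KO library, and its difference of 0.39 was the smallest of the members although its ratio was not. Per length of transcript Spry2 was 5.98 times Spry4 in WT and 5.71 times in KO.

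The ETS factors differed from each other in level more than between the libraries. Etv5 (NM_023794) was at 31.8 RPKM (30.4 to 33.4) in WT and 54.8 RPKM (52.8 to 56.8) in KO, from 1746 and 2916 reads, a ratio of 1.72 (1.62 to 1.83). Etv4 (NM_008815) was at 7.88 RPKM (6.95 to 8.89) in WT and 13.6 RPKM (12.3 to 14.9) in KO, from 264 and 441 reads, a ratio of 1.72 (1.47 to 2.01). Etv5 was 4.04 times Etv4 in both libraries. No interval was made for this quotient, and with the 264 and 441 reads of Etv4 a match to 3 digits is finer than the counts resolve. The ratio intervals of Ros1 and Etv5 do not overlap, and Ros1 had the higher KO over WT ratio.

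Etv5 is also expressed by Sertoli cells of the testis, and testis transcripts differed between the libraries. Of 8 Sertoli cell markers 6 reached 1 RPKM, and 4 of these were at least 2-fold lower in KO and 0 higher, and their summed level was 65.1 RPKM in WT and 20.8 RPKM in KO. Wt1 was at 3.45 and 0.0929 RPKM and Aard at 30.0 and 1.01 RPKM, while Dmrt1 and Fshr were listed at 0 in KO. The other way lay Inhbb at 7.62 and 10.1 RPKM (0.37) and Sox9 at 3.26 and 4.21 RPKM (0.29). The part of testis RNA in the WT values of the members was not tested.

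The glutathione-cleaving enzyme was close to Dusp6 in its ratio. Ggt1 (NM_008116) was at 26.8 RPKM (24.96 to 28.8) in WT and 51.0 RPKM (48.4 to 53.7) in KO, from 778 and 1437 reads, a ratio of 1.90 (1.74 to 2.08). Its difference was 0.90, and its log2 fold change was 0.998 in the authors' deposited table, so Ggt1 also lay at the edge of the 2-fold limit. Relative to the epithelium markers Dusp6 and Ggt1 were at -0.04 and -0.05.

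The order of levels was the same in both libraries: Ros1 was highest, followed by Etv5, Ggt1, Dusp6, Etv4, Ptpn6, Spry2 and Spry4. In WT the counting intervals of all 28 pairs of members were apart, and in KO those of 27 pairs, the exception being Etv5 and Ggt1. The KO over WT ratios ran from 1.51 for Ptpn6 to 2.04 for Ros1, while the WT levels ran from 0.592 to 46.6 RPKM. The ratio intervals of 2 of the 28 pairs, Ros1 with Ptpn6 and Ros1 with Etv5, did not overlap. Overlap depends on the number of reads, as the wide interval of Spry4 (1.21 to 2.77) shows. It therefore does not measure how alike the ratios are. By the authors' deposited table all 8 members had a GFOLD value above 0, from 0.27 for Spry4 to 1.04 for Ros1, against 39.6% of the 15000 genes.

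**Figure D2:**
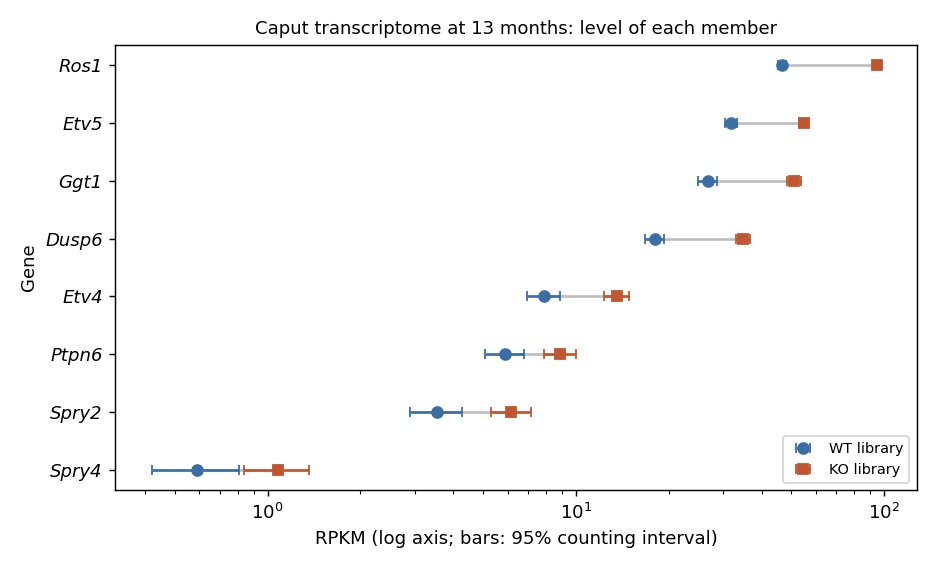
Level of each member in RPKM on a log axis in the WT (circles) and KO (squares) caput library at 13 months, 1 library each, with 95% counting intervals as bars. The order of the genes is the same in both libraries, from Ros1 (46.6 and 95.1 RPKM) to Spry4 (0.592 and 1.08 RPKM).

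The members were then set beside markers of the cells that express them, because the 2 libraries differed in their testis transcripts. The 8 epithelium markers, which include the keratins Krt8, Krt18 and Krt19 and the adhesion gene Epcam, had a median difference of 0.96 (0.74 to 1.03 across the list), and 2 of 8 were at least 2-fold higher. Of the 10 caput principal cell markers 7 were at least 2-fold higher, with a median of 1.12. Cst8, a cystatin of the initial segment, was at 594 RPKM in WT and 1188 RPKM in KO, a difference of 1.00. The members' median of 0.74 thus lay below that of both lists and above the 0.46 of 13 housekeeping genes. Smooth muscle and stroma had a median of 0.56, endothelium 0.13, basal cells 0.80 and clear cells 0.69. With the epithelium median as 0, the members ran from Spry4 at -0.57 through Ptpn6 (-0.44), Spry2 (-0.30), Etv4 (-0.24) and Etv5 (-0.19) to Ggt1, Dusp6 and Ros1. Spry4, Ptpn6, Spry2 and Etv4 were also the members with the lowest levels, where the scale compresses differences. Ptpn6 had the lowest KO over WT ratio as well, 1.51, against 1.82 for Spry4. The order depended on the scale: by the authors' log2 fold change Ptpn6 was the lowest member at 0.66, and Spry4 was at 0.92.

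Genes of the same pathway that were not members were compared by 8 lists, 97 of whose genes reached 1 RPKM. Of these, 5 were at least 2-fold higher and 8 at least 2-fold lower in KO, or 5.15% and 8.25% against 2.77% and 22.1% of all genes. Their median difference was 0.36, between that of all genes and that of the members. A difference above 0 was found in 76 of the 97. As for the members, this depended on the reference: the medians of all 8 lists lay below 0 when the epithelium or the caput principal cell median was set to 0. With the housekeeping median set to 0 all list medians but that of the initial segment regulators (0.19) did.

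The factors that act on the lumen side split into opposite directions. Of 7 such genes 2 were at least 2-fold higher and 2 at least 2-fold lower. Nell2, the ligand of ROS1, was at 5.69 RPKM in WT and 0.149 RPKM in KO (difference -2.54), and Adam3, a sperm surface protein made in the testis, was at 266 and 2.31 RPKM (-6.34). Both are germ cell transcripts, and the spermatid markers were lower in the same library, all 10 of 10, with a median of -6.03. By contrast Ovch2, an epididymal protease that depends on NELL2 and ROS1 in the mouse, was at 295 RPKM in WT and 675 RPKM in KO (1.19), and Adam28, another caput gene, at 330 and 689 RPKM (1.06). The direction of Ovch2 and Adam28 was thus that of the caput principal cell markers. Cd47 was at 8.27 and 11.7 RPKM.

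Receptors and ligands of fibroblast growth factors, another input to ERK in this epithelium, were low. Of 17 listed genes 7 reached 1 RPKM, and 0 of them were at least 2-fold higher or lower. Fgfr2 was highest at 8.34 RPKM in WT and 12.8 RPKM in KO (0.57). Fgf1 was at 3.89 and 6.13 RPKM (0.55), and Fgfrl1, named after its values were seen, at 4.74 and 3.59 RPKM (-0.32). Fgf4, Fgf8 and Fgf20 were listed at 0 in both libraries.

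The ERK cascade itself was present at moderate levels, with a median difference of 0.37 over 19 genes. None was at least 2-fold higher and 1 was lower, the adaptor Frs3 (4.60 and 0.706 RPKM), which was named after its value was seen. Among the kinases Araf was at 26.0 and 48.7 RPKM (0.88) and Map2k1 at 13.1 and 21.2 RPKM (0.66), while Mapk3 was at 13.96 and 8.14 RPKM (-0.71). The phosphatase Ptpn11, the close relative of Ptpn6 that promotes signalling to ERK, was at 16.9 and 24.7 RPKM (0.52), the same difference as Ptpn6 to 2 decimals. The kinases named here thus differed in direction.

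The list of other ERK feedback and response genes had a median of 0.43 over 22 genes. Which kinases the listed phosphatases act on was not tested. Of the 22 genes 1 was at least 2-fold higher and 2 were lower. Ccnd1, the gene of cyclin D1, was higher at 16.8 and 36.3 RPKM (1.07). The lower ones, named after their values were seen, were the phosphatase Dusp10 (4.70 and 0.662 RPKM) and the sprouty-related inhibitor Spred3 (3.88 and 1.08 RPKM). Spry1, the sprouty gene next to the members, was at 7.31 and 14.5 RPKM (0.90), and Spred1 at 8.23 and 12.3 RPKM (0.53). In both libraries Spry1 was therefore the most abundant of the 3 sprouty genes given here. The immediate early genes Jun and Junb were each at 0.59, and Dusp16 was at 0.01.

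Of 17 other ETS factors 1 was at least 2-fold higher and 2 lower, with a median of 0.19, which was 0.51 over the genes that reached 5 RPKM. The epithelial factors Ehf (32.5 and 72.4 RPKM, 1.13) and Elf3 (22.6 and 41.0 RPKM, 0.83) were on the side of the members. Elf2 was at 48.4 and 18.2 RPKM (-1.36). Etv2, named after its values were seen, was at 1.46 RPKM in WT and listed at 0 in KO. Per length of transcript Etv5 was close to Ehf in WT (31.8 and 32.5 RPKM) and below it in KO (54.8 and 72.4 RPKM).

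Around GGT1, the other genes of the gamma-glutamyl cycle had a median of 0.45 over 9 genes, 1 of them at least 2-fold higher and 1 lower. Slc7a11, the cystine transporter that supplies glutathione synthesis, was at 9.92 and 22.3 RPKM (1.09), and Gclm, the modifier subunit of the enzyme that starts this synthesis, at 15.98 and 26.8 RPKM (0.71). Oplah, which opens 5-oxoproline, was at 16.8 and 1.25 RPKM (-2.99). The relatives of Ggt1 were at 12.9 and 16.7 RPKM for Ggt7 (0.34), while Ggt5 and Ggt6 stayed under 1 RPKM in both libraries. Ggt1 thus had the highest level of the GGT genes given here.

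Other phosphatases had a median of 0.22 over 10 genes, with 0 at least 2-fold higher or lower. Ptprf was at 18.5 and 29.9 RPKM (0.67) and Ptpn13 at 8.11 and 12.3 RPKM (0.55). Regulators of initial segment development had a median of 0.65 over 6 genes, also with 0 at least 2-fold higher or lower. They included the microRNA-processing gene Dicer1 at 8.94 and 13.5 RPKM (0.55) and Lgr4, which initial segment development requires in the mouse, at 7.62 and 12.7 RPKM (0.67).

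**Figure D3:**
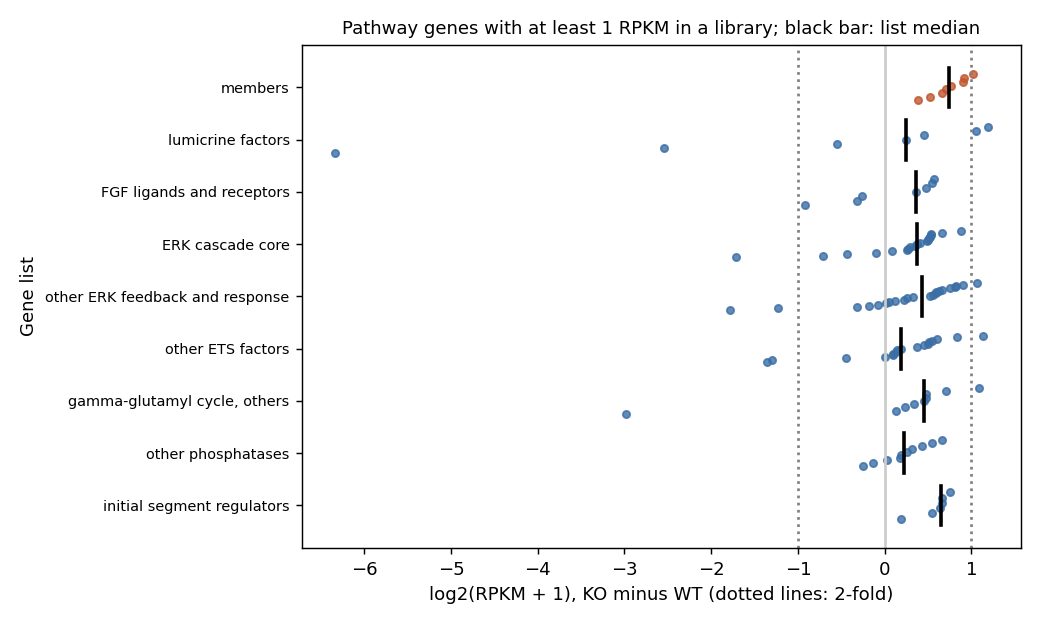
Differences on the log2(RPKM + 1) scale, KO minus WT, for the 8 members and 8 lists of pathway genes, each point 1 gene that reached 1 RPKM, black bars at the list medians and dotted lines at 2-fold. The member points lie between 0.39 and 1.01, while the list of lumicrine factors runs from -6.34 (Adam3) to 1.19 (Ovch2).

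The same genes were looked for in the small RNA libraries, as reads of the mRNA class matched to their RefSeq transcripts. Such fragments are not a level of the mRNA. There were 198 reads in all 10 libraries, of which 160 lay on the plus strand, that of the mRNA. Caput at 13 months held 45 reads in WT, or 3.25 RPM (reads scaled to the classified reads of the library, 2.37 to 4.36), and 49 reads in KO, or 2.67 RPM (1.97 to 3.53). On the base of classified reads the KO over WT ratio was 0.820 (0.536 to 1.26), an interval that includes 1. With mRNA class reads as the base it was 3.38 (2.21 to 5.19), an interval that does not include 1. That class held 447645 reads in WT and 144085 in KO caput.

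The other pairs had ratio intervals that include 1 on both bases, and the ratios given here are on classified reads. Corpus held 26 reads in WT and 7 in KO, a ratio of 0.936 (0.343 to 2.21). Cauda held 25 and 17 reads, a ratio of 0.976 (0.494 to 1.88), and testis 11 and 14 reads, a ratio of 1.11 (0.468 to 2.70). Caput at 2 months held 2 reads in each library, out of 3855476 classified reads in WT and 7673814 in KO. The summed level was highest in the caput libraries at 13 months, at 3.25 and 2.67 RPM, and at most 1.52 RPM in the other 8 libraries. This order depended on the base. With mRNA class reads as the base, WT caput at 13 months was at 100.5 RPM, below WT and KO cauda at 187 and 115 RPM, and KO caput at 13 months was at 340.1 RPM. On that base WT caput at 2 months, with its 2 reads, was highest at 577 RPM.

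**Figure D4:**
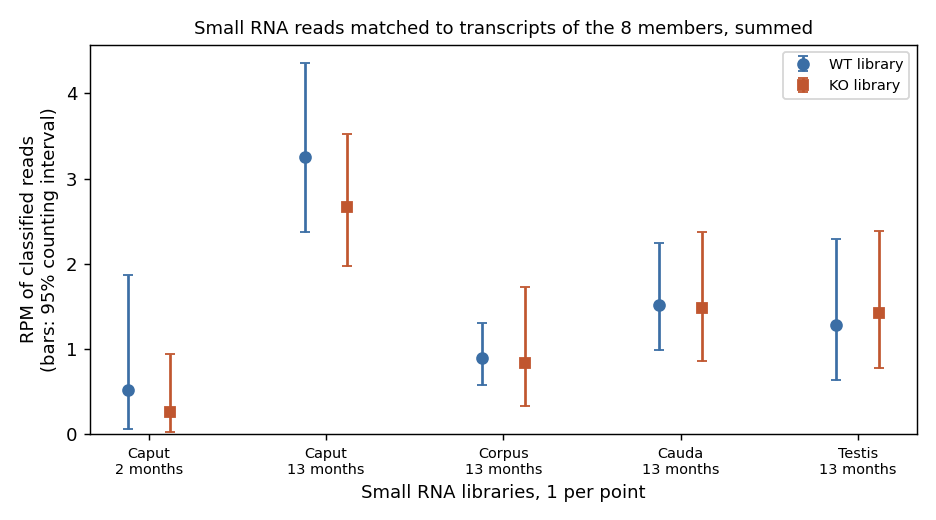
Small RNA reads matched to transcripts of the 8 members, summed, in RPM of classified reads, for WT (circles) and KO (squares) libraries of each tissue and age, 1 library per point, with 95% counting intervals. On this base caput at 13 months is highest (3.25 and 2.67 RPM), which does not hold with mRNA class reads as the base, and the WT and KO intervals overlap in every pair.

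The genes differed in where their fragments were listed. Of 39 Ros1 reads 33 came from caput at 13 months, or 84.6% (Clopper-Pearson interval 69.5% to 94.1%), with 16 in WT and 17 in KO, and of 18 Ggt1 reads 14 did, or 77.8% (52.4% to 93.6%). These 2 caput libraries held 25.3% of all classified reads and 20.1% of the mRNA class reads. Fragments of Etv5 and Dusp6 were spread over the tissues, with 13 and 15 reads in cauda. Caput at 13 months held 14 of 36 Etv5 reads, or 38.9% (23.1% to 56.5%), and 18 of 53 Dusp6 reads, or 34% (21.5% to 48.3%). Both intervals include the share of classified reads and lie above that of mRNA class reads. Ptpn6 had 8 of 30 reads in caput at 13 months and Spry4 6 of 14. Etv4 and Spry2 had 4 reads each in all libraries, too few for a comparison.

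A single fragment was listed in 3 or more libraries, and 162 of 165 distinct fragments, those of Spry4 left aside, were listed in 1. It is an 18 nt piece of Dusp6, with 10 reads in 5 libraries: WT and KO caput and cauda and WT corpus at 13 months. A second Dusp6 piece of 18 nt had 3 reads in 2 libraries, and the 2 share a run of 13 nt, in capitals. They are shown because both were listed in more than 1 library on the plus strand and without a mismatch. The remaining fragment listed in more than 1 library, a Ggt1 piece of 18 nt with 2 reads in 2 libraries, lay on the minus strand with 2 mismatches and is not shown.
Dusp6 fragment in 5 libraries: aacacCGGGTTGGATCCG
Dusp6 fragment in 2 libraries: CGGGTTGGATCCGaggtg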

How the data were processed

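The caput transcriptome at 13 months was deposited by the authors as RPKM per RefSeq transcript for 1 WT and 1 KO library, with a log2 fold change and a GFOLD value, made with GFOLD V1.1.3 per the file headers. Its E-FDR, the p-value column deposited by the authors, is 1 in all 28344 transcripts and was not used. Small RNA files were deposited as counts of reads per distinct sequence, matched with up to 2 mismatches to miRBase, Rfam or GenBank entries per the file headers. TopHat2, Bowtie 0.12.7 and mm9 appear in the submitters' processing notes, without a role.

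From these, 1 transcript per gene was kept, that with the highest mean RPKM, and 42 gene names deposited as dates were replaced through their RefSeq accession. Symbols of listed genes were matched by the file's name or the RefSeq symbol of the accession. Nicol1 (listed also as Gm1673, which was found), Spry3 and Rhox5 were not analysed here. Differences are log2(RPKM + 1), KO minus WT, for genes that reach 1 RPKM in either library, and a 2-fold difference is 1 or more in size. Whole reads were recovered as the numbers and transcript length that give both RPKM values to their printed digits together with their deposited log2 fold change, and 1 solution was found for each member transcript. Level intervals are exact Poisson and ratio intervals exact conditional binomial, at 95%. Reads carry no molecular identifiers, so intervals cover counting error only. Fragment counts in the 2-month files whose rank and count had become a date were read back from the month. The floor of 3 counts lay between 0.103 and 0.778 RPM. The steps were checked on simulated data (Python 3.11.15, scipy 1.17.1).

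The members and lists were chosen with earlier results of these data known. All members are named, and of each pathway list up to 6 genes by size of difference and 6 by mean, at 5 RPKM or more in a library, could be named. A planned comparison of member proteins was not made here, and some genes of the lists are not reported by name. Alternatives covered pseudocounts of 0.1 and 5, filters, transcript sums, centring, the authors' fold change, mismatches, strand and base.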

Additional observations from a re-analysis of the deposited data

How the results depend on the processing

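With 1 library per genotype, no replicate could be left out and depth sets only the counting error. The count of members at least 2-fold different, 1 as reported, was 0 with a pseudocount of 5 and after centring on all genes, the epithelium list, the caput principal cell list or the housekeeping list, and 2 with the fold change of the authors' deposited table. The median of the members was 0.28 after centring on the housekeeping list, and turned to -0.22 after centring on the epithelium list and to -0.38 after centring on the caput principal cell list, where Ros1 was at -0.11. Of 79 member differences under the 10 alternatives 63 were above 0, and the others all came from centring. The pathway genes at least 2-fold higher, 5 as reported, numbered 3 with a pseudocount of 5, 0 after centring on the epithelium, caput principal cell or housekeeping list, and 8 with the authors' fold change. Those at least 2-fold lower, 8 as reported, numbered 4 with a pseudocount of 5 or a filter of 5 RPKM, 21 after centring on the epithelium list and 29 on the caput principal cell list. Of 80 list medians under the alternatives 56 were above 0. With a filter of 5 RPKM the median of the lumicrine factors was 0.46 and that of the FGF genes 0.56, and without a filter the medians were 0 for the FGF genes, 0.22 for the ERK feedback and response genes and 0.36 for the initial segment regulators. Over all genes, the 415 higher and 3321 lower genes became 11 and 6866 after centring on the epithelium list and 1004 and 3638 with the fold change of the authors' deposited table. The log2 KO over WT value of the small RNA fragments in caput at 13 months, -0.29 as reported, was 1.76 with mRNA class reads as the base, since that class differed between the libraries, and -0.53 without mismatched reads.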
